A study of Mus musculus with 6 samples.

Results

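The genes for the type VI, VIII and X collagens were followed in mouse melanoma tumors grown at 2 body sites. The 9 members were taken by gene symbol from the 45777 genes of the expression matrix: the type VI chains Col6a1, Col6a2, Col6a3, Col6a4, Col6a5 and Col6a6, the type VIII chains Col8a1 and Col8a2, and the type X chain Col10a1. All 6 tumors were grafts of B16F10, a pigmented melanoma cell line of C57BL/6 origin, and their RNA was sequenced. The labels say that tumors were taken out and extracted, the methods speak of isolated tumor cells without saying how they were isolated, and markers of other cell types were read in these libraries. Footpads of the hind leg carried 3 of the tumors, flank skin carried the other 3, and the labels give Foxn1-/- hosts, which lack a functional thymus, at 8 weeks of age for both sites. The methods of the study describe B16F10 grafts in C57BL/6J mice, injected at both sites of an animal at the same time. They also describe such grafts in Foxn1-null mice in a separate drug experiment, and do not name the host of the sequenced tumors. A supplementary figure legend of the study further describes B16F10 grafts placed at both sites of Foxn1-null mice at the same time. A footpad and a flank tumor may thus have come from the same animal, but no label ties them, so the p-values given here measure the spread between these tumors. The comparison asks how gene expression differs between tumors of the footpad, a weight-bearing site, and tumors of the flank skin. The study states that these sites differ in more than weight bearing. Load cannot be told apart from site in this design.

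Collagen VI is built from 1 chain each of Col6a1, Col6a2 and either Col6a3 or one of the related chains Col6a4, Col6a5 and Col6a6, and its tetramers join end to end into beaded microfilaments around cells. In skin it is made mainly by fibroblasts and lies close to basement membranes, where it binds cell-surface receptors and small proteoglycans. Collagen VIII is a short-chain, network-forming collagen of vessel walls and of the corneal endothelial membrane, and collagen X is its close relative, made by hypertrophic chondrocytes of growing cartilage. In bulk tissue, fewer cells of a type and less RNA per cell cannot be told apart.

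The libraries held between 46529649 and 66364366 counted reads and between 21060 and 22607 genes with a read. A count of 0 allowed up to 3 reads, or between 0.0438 and 0.0673 counts per 1000000 reads (CPM) in a library, and this limit covers counting error only. The label of melanoma was checked on 7 melanocyte markers, none of which was at 0, with a summed level of 9802 to 17943 CPM in the footpad and 14350 to 24942 CPM in the flank. Footpad replicate 2 stood apart in 3 marker lists: its keratinocyte markers summed to 1110 CPM, against 6.80 and 31.3 CPM in the other footpad tumors, and its skeletal muscle markers to 1030 CPM, against 38.6 and 124 CPM. Its neutrophil markers summed to 7.61 CPM, against 384 and 184 CPM. In the flank the skeletal muscle markers were highest in replicate 2, at 191 CPM, against 11.0 and 31.7 CPM in the other flank tumors.

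Of the 9 collagen genes, 7 had enough reads to be tested, and 4 of them, Col6a1, Col6a2, Col6a3 and Col8a1, were higher in the footpad. A gene was called when edgeR's quasi-likelihood test gave a Benjamini-Hochberg adjusted p under 0.05 and the fold was at least 2. By this rule, 2.89% of the 17210 genes tested were higher in the footpad and 0.872% were lower. DESeq2 called the same 4 members higher, against 6.71% of all genes. No collagen member was lower by edgeR or by DESeq2, which called 2.05% of all genes lower. By an unadjusted edgeR p under 0.05 with the same fold, 4 members were higher and 0 lower, against 9.16% and 2.82% of all genes. In the same 4, each footpad tumor lay above each flank tumor, which held for 17.5% of genes. No tested member had every flank tumor above every footpad tumor, which held for 14.9%. The median log2 fold change over the 7 tested members was 2.45, beside -0.00 over all genes tested. Genes for Col6a4 and Col6a5 had too few reads to test, so these counts leave them out.

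**Figure D1:**
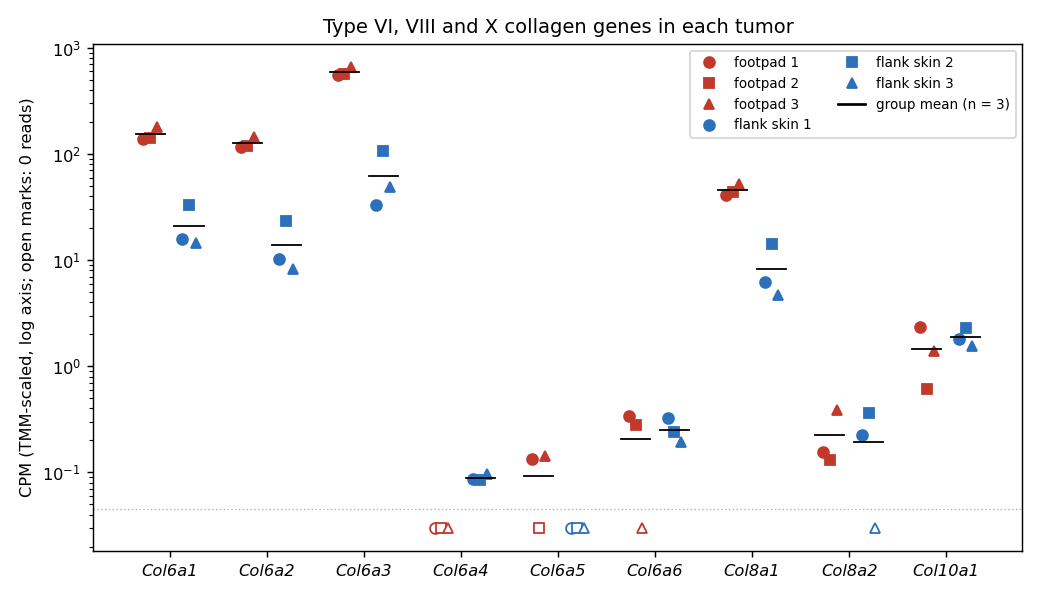
Level of each of the 9 collagen genes in every tumor, in CPM on a log axis, with footpad tumors in red, flank skin tumors in blue and black lines for the group means (n = 3). Col6a1, Col6a2, Col6a3 and Col8a1 show no overlap between the sites, with the footpad higher. Col6a4, which had too few reads to test, shows none with the flank higher. Col10a1, Col6a5, Col6a6 and Col8a2 overlap, and open marks below the dotted line stand for 0 reads.

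The 250 bases before the annotated start of 5 genes are shown because 4 of them moved together and the other, Col10a1, did not. They come from RefSeq on build GRCm38.p6, in which all 9 members matched, and each runs 5′ to 3′ on the gene's own strand. The starts used for Col6a2 and Col6a3 lie inside the gene spans given further below, so these windows overlap those spans, that of Col6a2 for most of its length. Capitals mark matches, on either strand, to 5 motifs that name known classes of promoter element. The motif of TEAD factors was searched as CATTCC, and the motif of AP-1, the Fos and Jun dimer, was searched as TGANTCA. The GC box bound by Sp1-type factors was searched as GGGCGG. The core of the site known for Runx proteins was searched as TGTGGT, and the TATA box was searched with the letters TATAAA. The Col6a1 window is chr10:76726045-76726294 on the minus strand, the Col6a2 window chr10:76623405-76623654 on the minus strand, for the first of 2 listed starts, the Col6a3 window chr1:90843972-90844221 on the minus strand, the Col8a1 window chr16:57754738-57754987 on the minus strand and the Col10a1 window chr10:34389731-34389980 on the plus strand.
Col6a1: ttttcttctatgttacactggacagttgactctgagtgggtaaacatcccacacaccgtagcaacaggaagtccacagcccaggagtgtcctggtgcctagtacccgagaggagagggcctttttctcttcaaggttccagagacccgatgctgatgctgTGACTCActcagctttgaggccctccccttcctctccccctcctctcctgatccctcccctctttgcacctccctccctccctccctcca
Col6a2: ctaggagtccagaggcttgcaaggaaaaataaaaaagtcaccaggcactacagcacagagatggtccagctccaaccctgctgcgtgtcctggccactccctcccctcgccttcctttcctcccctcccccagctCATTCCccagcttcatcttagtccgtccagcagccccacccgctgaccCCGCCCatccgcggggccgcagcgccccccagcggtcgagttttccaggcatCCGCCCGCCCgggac
Col6a3: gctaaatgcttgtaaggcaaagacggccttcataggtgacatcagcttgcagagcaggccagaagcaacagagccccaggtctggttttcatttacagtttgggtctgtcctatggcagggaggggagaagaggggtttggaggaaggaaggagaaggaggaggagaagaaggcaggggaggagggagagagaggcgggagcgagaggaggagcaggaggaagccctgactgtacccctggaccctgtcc
Col8a1: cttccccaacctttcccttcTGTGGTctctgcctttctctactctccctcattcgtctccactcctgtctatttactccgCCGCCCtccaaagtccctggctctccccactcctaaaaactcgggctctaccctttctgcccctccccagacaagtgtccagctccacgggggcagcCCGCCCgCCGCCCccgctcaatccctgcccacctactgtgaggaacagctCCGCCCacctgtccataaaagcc
Col10a1: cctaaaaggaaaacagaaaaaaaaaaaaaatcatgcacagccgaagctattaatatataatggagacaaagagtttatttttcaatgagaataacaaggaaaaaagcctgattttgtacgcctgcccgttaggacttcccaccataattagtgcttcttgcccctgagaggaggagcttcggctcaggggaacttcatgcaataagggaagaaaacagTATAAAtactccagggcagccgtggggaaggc
These windows held different matches. The Col6a1 window had 1 AP-1 match, beginning 90 bases before the start, and 6.87% of all 27025 promoter windows held that motif. The Col6a2 window had 1 TEAD match at 115 bases and 3 GC boxes, of which those at 15 and 11 bases overlap, and the Col8a1 window had 4 GC boxes and 1 RUNX match at 230 bases. TEAD, GC box and RUNX matches stood in 12.6%, 32.9% and 14.2% of all windows. The Col6a3 window held none of the 5, and the Col10a1 window held a TATA box 32 bases before the start, as 13.0% of all windows hold one somewhere. The G and C content was between 56.0% and 64.4% in the 4 genes that were higher in the footpad and 41.6% in Col10a1, beside a median of 52.0% over all windows. In the members not shown, none of them called, it was 70.0% in Col8a2, 62.4% in Col6a6, 58.8% in Col6a5 and 55.2% in Col6a4. The windows of these members held GC boxes too. A match describes letters and says nothing of binding.

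Col6a1 encodes the chain present in every collagen VI molecule and lies on chromosome 10 at 76708792 to 76726044, on the minus strand. Its level was 139, 143 and 180 CPM in footpad tumors 1 to 3 and 15.8, 32.9 and 14.4 CPM in flank tumors 1 to 3. The lowest footpad tumor was well above the highest flank tumor, which was replicate 2. The mean was 154 ± 22.9 CPM in the footpad and 21.0 ± 10.3 CPM in the flank (SD, n = 3), a log2 fold change of 2.87 with a standard error of 0.34, a 95% interval of 2.21 to 3.54 and an edgeR adjusted p of 0.0139.

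Col6a2, the partner chain, begins its gene 85161 bases beyond the end of Col6a1 on the same chromosome and strand, at 76595756 to 76623630. Its level was 117, 118 and 145 CPM in the footpad and 10.2, 23.2 and 8.29 CPM in the flank. The order of the flank tumors was led by replicate 2 here too. The log2 fold change was 3.19 with a standard error of 0.39, and the edgeR adjusted p was 0.0141.

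Col6a3 encodes the long chain that carries most of the globular domains of collagen VI, and its gene lies on chromosome 1 at 90766860 to 90844001, on the minus strand. Its level was 551, 570 and 660 CPM in the footpad, from 24556, 39092 and 32342 reads. In the flank it was 32.8, 106 and 48.9 CPM, from 1904, 6213 and 3062 reads. Among the flank tumors replicate 2 was the highest again and replicate 1 the lowest. The log2 fold change was 3.24 with a standard error of 0.42, a 9.47-fold difference, and the edgeR adjusted p was 0.0141. Of all genes tested, 1.78% had a larger log2 fold change than Col6a3.

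Col8a1, the type VIII chain gene on chromosome 16 at 57624256 to 57754737 (minus strand), was the other member called. It stood at 41.2, 43.5 and 51.6 CPM in the footpad and 6.17, 14.1 and 4.65 CPM in the flank. The sites did not overlap, and flank replicate 2 was again the highest of its group. The log2 fold change was 2.45 with a standard error of 0.40, a 5.48-fold difference with a 95% interval of 1.67 to 3.24 on the log2 scale, and the edgeR adjusted p was 0.0237.

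These 4 calls depended on which tumors were included. Without footpad replicate 1, footpad replicate 3 or flank replicate 3 no collagen gene was called by edgeR, and the adjusted p of the 3 collagen VI genes then lay between 0.0552 and 0.0762. Col8a1 was also lost without flank replicate 1, at an edgeR adjusted p of 0.0616. The calls over all genes fell too, to 26, 0 and 36 higher genes without footpad replicate 1, footpad replicate 3 and flank replicate 3, from 497 with all tumors. Without flank replicate 2 the log2 fold changes of Col6a3 and Col8a1 grew from 3.24 to 3.85 and from 2.45 to 3.07. Over the 13 alternatives, adjusted p ran from 7.10e-17 (DESeq2) to 0.0702 (edgeR without footpad replicate 3) for Col6a1 and from 8.39e-09 to 0.106, by the same 2 settings, for Col8a1. All 4 were still called without footpad replicate 2 or flank replicate 2, and the footpad was the higher site in every one.

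Genes of different length can be compared only on a scale per length, for which the deposited FPKM values (fragments per kilobase of transcript, scaled to the depth of each library) were used. In the footpad Col6a1 was at 34.6 ± 6.40 FPKM, Col6a2 at 29.9 ± 4.65 FPKM, Col6a3 at 51.9 ± 7.39 FPKM and Col8a1 at 7.93 ± 1.30 FPKM (SD, n = 3). In the flank they were at 4.82 ± 2.76, 3.35 ± 2.24, 5.87 ± 3.99 and 1.49 ± 1.02 FPKM. The order Col6a3, Col6a1, Col6a2, Col8a1 held for the means at both sites. The ranges of Col6a1 and Col6a2 overlapped at both sites. The range of Col6a3 lay above that of Col6a1 in the footpad, with 44.4 FPKM in its lowest tumor, and overlapped it in the flank. Among the genes tested, Col6a1 stood above 89.6% in mean FPKM in the footpad and above 51.6% in the flank, and Col8a1 above 61.2% and 35.5%.

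The collagen VI chains can also be set against each other inside each tumor. Of the summed FPKM of the 6 collagen VI genes, Col6a1 made up 29.6 ± 0.814%, Col6a2 25.7 ± 0.221% and Col6a3 44.6 ± 0.797% in the footpad. In the flank the shares were 35.2 ± 3.56%, 23.6 ± 3.03% and 40.8 ± 6.23%. The footpad tumors lay close together, with Col6a3 between 43.7% and 45.2%, and the flank tumors were spread more widely, with Col6a3 between 33.9% and 46.0%. Flank replicate 1 had the lowest Col6a3 share and the highest Col6a1 share, 39.3%. The sum itself was 98.5, 116 and 135 FPKM in the footpad and 8.26, 24.4 and 9.62 FPKM in the flank.

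The FPKM of Col6a2 per FPKM of Col6a1 was 0.895, 0.870 and 0.843 in the footpad and 0.669, 0.740 and 0.610 in the flank. The sites did not overlap, and the difference of the log2 ratios was 0.37. For Col6a3 per Col6a1 the ratios were 1.55, 1.54 and 1.43 in the footpad and 0.863, 1.29 and 1.38 in the flank, with a log2 difference of 0.39. That value fell to 0.18 without flank replicate 1. Col8a1 per Col6a1 was 0.232, 0.236 and 0.223 in the footpad and 0.306, 0.333 and 0.254 in the flank, a log2 difference of -0.36, so that Col8a1 had the smaller difference between the sites in these tumors. With a small constant added to each FPKM value, the sites did not overlap in any of the 5 ratios computed. The 2-sided exact permutation p was then 0.1 for each, before and after adjustment over the 5. This is the smallest p that 3 against 3 tumors allow. For Col8a2 per Col8a1 the lack of overlap rested on the constant, because flank replicate 3 had no Col8a2 reads. On log2 CPM in place of FPKM, the permutation p of that ratio was 0.300, with a log2 difference of -1.70.

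**Figure D2:**
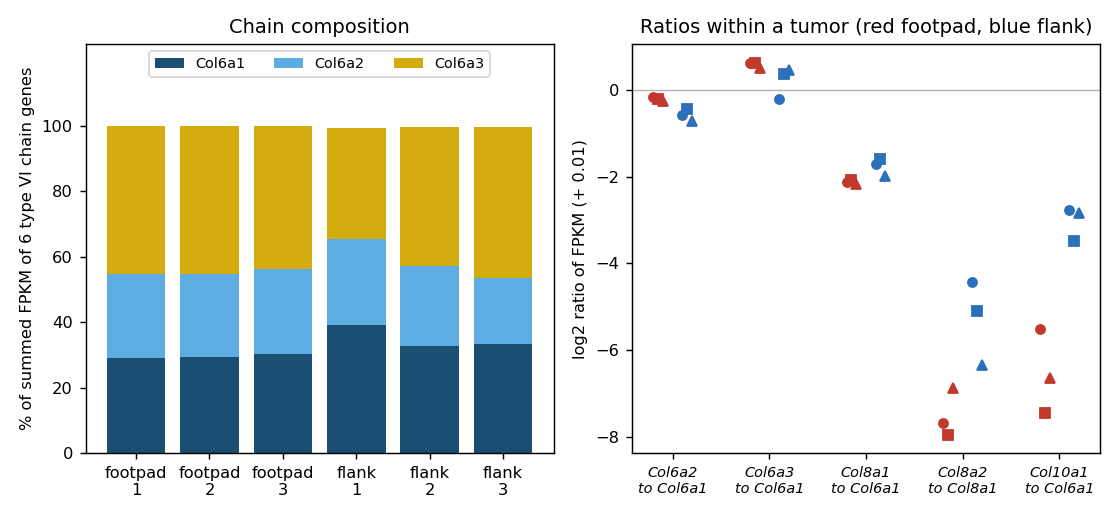
Left: share of Col6a1, Col6a2 and Col6a3 in the summed FPKM of the 6 collagen VI genes in each tumor, in percent. Right: log2 ratio of FPKM (with 0.01 added) of pairs of collagen genes within each tumor, footpad in red and flank in blue, with circles, squares and triangles for replicates 1, 2 and 3. The Col10a1 to Col6a1 ratio shows the widest gap between the sites, -3.51 on the log2 scale.

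Col10a1 was expressed at a low level and was not called. Its level was 2.36, 0.613 and 1.39 CPM in the footpad, from 105, 42 and 68 reads. In the flank it was 1.81, 2.28 and 1.55 CPM, from 105, 133 and 97 reads. The sites overlapped, with footpad replicate 1 the highest of all 6 tumors and footpad replicate 2 the lowest. The log2 fold change was -0.38 with a standard error of 0.50 and a 95% interval of -1.35 to 0.60, with an edgeR adjusted p of 0.669. It was -0.92 without footpad replicate 1 and -0.01 without footpad replicate 2, and over the 13 alternatives the adjusted p ran from 0.376 to 0.992.

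Relative to Col6a1 in the same tumor, Col10a1 stood at 0.0219, 0.00570 and 0.00999 of its FPKM in the footpad and at 0.147, 0.0890 and 0.140 in the flank. The difference of the log2 ratios was -3.51, an 11.4-fold lower ratio in the footpad, beside log2 fold changes of 2.87 for Col6a1 and -0.38 for Col10a1 on their own. The Col10a1 gene lies at 34389981 to 34397085 of chromosome 10 on the plus strand, wholly inside Nt5dc1, a gene of the opposite strand at 34303609 to 34418589, and it overlaps 1 annotated exon of Nt5dc1. How the counting treated strand is not given in the sources used here, so reads of the pair cannot be told apart. Nt5dc1 was at 30.8, 48.8 and 38.6 CPM in the footpad and 46.7, 44.7 and 41.5 CPM in the flank, with a log2 fold change of -0.17 and an edgeR adjusted p of 0.593. In Col10a1 footpad replicate 1 was highest and replicate 2 lowest, whereas in Nt5dc1 it was the reverse.

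Markers of hypertrophic cartilage and bone, the tissue known for collagen X, were read in part. Of 13 such genes 9 were tested, with 1 higher and 2 lower in the footpad by edgeR, against 2.89% and 0.872% of all genes tested. Their median log2 fold change was 0.94, and the list summed to between 82.0 and 295 CPM in the footpad and 117 and 158 CPM in the flank. By an unadjusted edgeR p under 0.05 with the fold, 3 of the 9 were higher and 2 lower, against 9.16% and 2.82% of all genes tested. Ihh and Ibsp had 0 reads in all 6 tumors, and Sp7 and Acan had too few reads to test. Alpl, Mmp13 and Bglap had log2 fold changes of 2.11, 1.64 and 0.94 (edgeR adjusted p 0.196, 0.494 and 0.581). Sox9 and Pth1r had -0.04 and -0.13 (edgeR adjusted p 0.975 and 0.885). Spp1, the osteopontin gene, which macrophages and tumor cells also express, had the most reads of the list, at 148 ± 99.7 CPM in the footpad and 57.3 ± 28.2 CPM in the flank (log2 fold change 1.37, edgeR adjusted p 0.168). Runx2, a transcription factor of hypertrophic chondrocytes and osteoblasts that was singled out after its values were seen, rose in the footpad from 1.14 ± 0.442 to 7.04 ± 3.35 CPM, a log2 fold change of 2.62 (edgeR adjusted p 0.0298). The cartilage collagen genes Col2a1 and Col9a1 fell, with log2 fold changes of -2.71 and -3.43 (edgeR adjusted p 0.00677 for both). Col2a1 was at 6.04 ± 1.12 CPM in the footpad and 39.6 ± 8.17 CPM in the flank.

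The remaining chains were near the limit of detection. Col6a6, a chain that can take the place of Col6a3, had 15, 19 and 0 reads in the footpad and 19, 14 and 12 in the flank, with a log2 fold change of -0.30 and a 95% interval of -2.25 to 1.65. Col8a2, the partner chain of Col8a1, had 7, 9 and 19 reads in the footpad and 13, 21 and 0 in the flank, with a log2 fold change of 0.21 and a 95% interval of -1.95 to 2.36. In both the sites overlapped and 1 tumor had no reads, and the edgeR adjusted p was 0.880 for Col6a6 and 0.925 for Col8a2. Col8a2 per Col8a1 had a log2 ratio of -7.51 ± 0.56 in the footpad and -5.29 ± 0.97 in the flank, from these few reads. In the flank tumor without Col8a2 reads, the ratio came only from the constant added to FPKM.

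Col6a4 and Col6a5 were each read at 1 site only. Col6a4 had 0 reads in every footpad tumor and 5, 5 and 6 reads in the flank. Its mean was 1.55-fold lower in the footpad when each footpad library is set to the limit of 3 reads. Col6a5 had 6, 0 and 7 reads in the footpad and 0 in every flank tumor. Its mean was 1.84-fold higher in the footpad when each flank library is set to that limit and footpad replicate 2 is kept at 0. These folds leave out the counting error of the few reads at the higher site. Neither passed the filter on low counts, and in an edgeR fit without the filter the adjusted p was 0.193 for Col6a4 and 0.288 for Col6a5. The genes for Col6a6, Col6a5 and Col6a4 lie in a row on chromosome 9, all on the minus strand, with gaps of 27823 and 27854 bases, and none of these differences was detectable at this depth.

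Genes whose products bind, modify or cut these collagens were followed in 3 lists with 25 genes, of which 24 were tested. By edgeR 6 were higher and 1 was lower in the footpad, against 2.89% and 0.872% of all genes tested. DESeq2 gave the same counts, against 6.71% and 2.05%, and the median log2 fold change was 0.22. In 11 of the 24 every footpad tumor lay above every flank tumor, and in 2 the reverse held, against 17.5% and 14.9% of all genes tested. The count of higher partner genes was 1 without footpad replicate 1, 2 without flank replicate 1 and 0 without footpad replicate 3 or flank replicate 3.

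Among 11 receptor genes 1 was called higher by edgeR, against 2.89% of all genes tested. Cspg4, a proteoglycan that anchors collagen VI on melanoma cells and pericytes, was at 29.3, 17.5 and 25.4 CPM in the footpad and 5.24, 10.9 and 7.25 CPM in the flank. Its groups did not overlap, and its log2 fold change was 1.62 with a standard error of 0.31 (edgeR adjusted p 0.0352). The collagen VI receptor genes Antxr1 and Antxr2 had log2 fold changes of 0.39 and 0.21 (edgeR adjusted p 0.164 and 0.462), and Itgb1, the shared beta chain of the collagen-binding integrins, had -0.10 (adjusted p 0.721). In 5 of the 11 receptor genes every footpad tumor lay above every flank tumor, which held for 17.5% of all genes tested. Among these, the uncalled Itga10 and Lair1 had log2 fold changes of 1.37 and 1.25 (edgeR adjusted p 0.204 and 0.173). In 1, Itga1 at -0.39 (edgeR adjusted p 0.195), every flank tumor lay above every footpad tumor, which held for 14.9% of all genes tested. The median over the 11 receptor genes was 0.21.

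Of 8 matrix partners 7 were tested, with 4 higher and 1 lower by edgeR, against 2.89% and 0.872% of all genes tested. The small proteoglycans decorin and biglycan bind collagen VI filaments. Dcn was at 33.6, 42.3 and 53.8 CPM in the footpad and 1.55, 8.02 and 1.42 CPM in the flank, a log2 fold change of 3.56 with a standard error of 0.69 (edgeR adjusted p 0.0353). Bgn was at 101, 53.7 and 98.6 CPM in the footpad and 5.14, 16.2 and 4.28 CPM in the flank, a log2 fold change of 3.30 (edgeR adjusted p 0.0253). In both, flank replicate 2 was the highest of its group, as in the collagen VI genes, and without it the log2 fold changes were 4.85 and 4.16. Tnxb, the tenascin that spaces collagen fibrils in skin, had a log2 fold change of 2.61, and Fn1, fibronectin, one of 2.24 (edgeR adjusted p 0.0348 and 0.0105).

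Matrilins link collagen VI to other matrix molecules, and none of the 3 tested was higher in the footpad. Matn4 had 0, 7 and 10 reads in the footpad and 178, 104 and 100 in the flank, a log2 fold change of -4.35 with a standard error of 0.87 (edgeR adjusted p 0.0381). This call was lost when any of the 6 tumors was left out, with adjusted p between 0.0596 and 0.112. Matn2 and Matn3 had log2 fold changes of -0.58 and -0.37 (edgeR adjusted p 0.536 and 0.642), and Matn1 was not tested.

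Of 6 genes for chain modification and processing, 1 was called higher by edgeR, against 2.89% of all genes tested. Bmp1, a procollagen proteinase, was at 56.3, 64.7 and 71.5 CPM in the footpad and 28.8, 32.7 and 24.9 CPM in the flank. Its log2 fold change was 1.16 with a standard error of 0.16 (edgeR adjusted p 0.0154). The collagen chaperone gene Serpinh1 had a log2 fold change of -0.11, the prolyl hydroxylase subunit gene P4hb 0.07 and the lysyl hydroxylase gene Plod3 0.26 (edgeR adjusted p 0.715, 0.871 and 0.239).

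**Figure D3:**
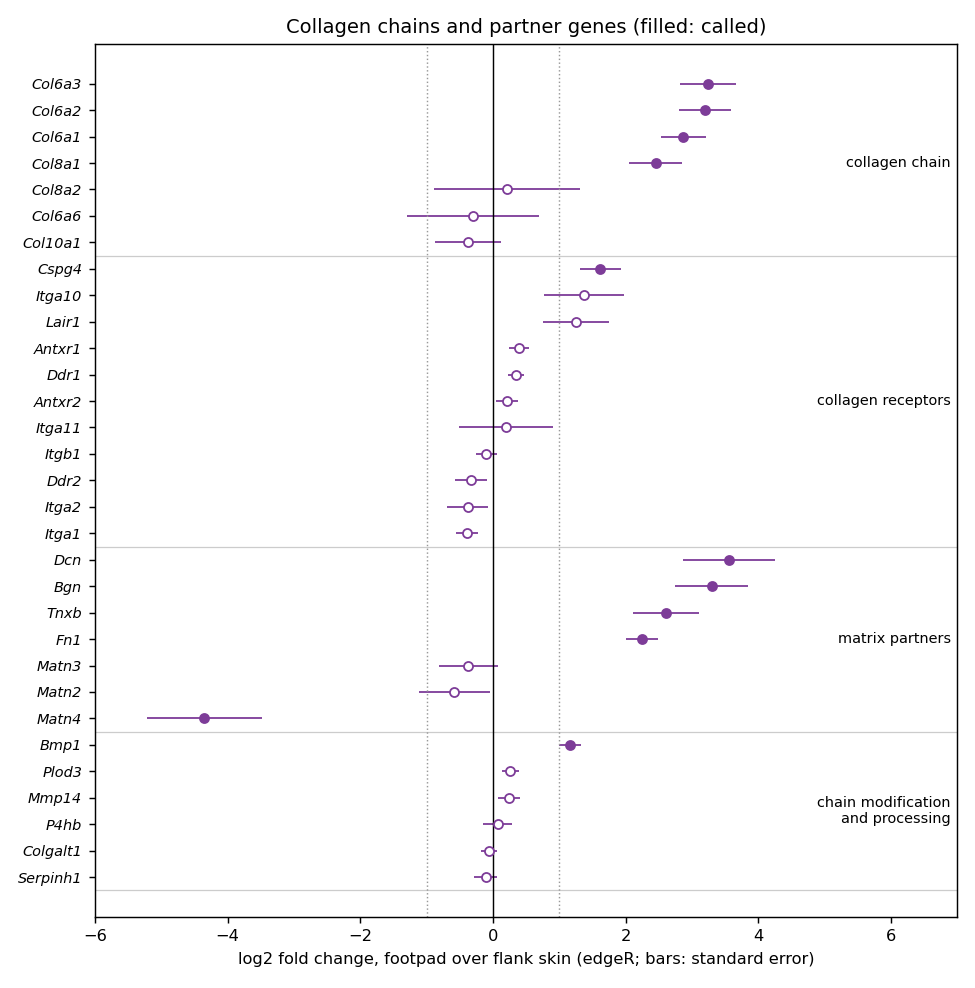
Log2 fold change of footpad over flank skin with its standard error for the 7 tested collagen genes and 24 tested partner genes, filled where called by edgeR, with dotted lines at a fold of 2. Col6a3, Col6a2, Col6a1 and Col8a1 lie between 2.45 and 3.24, most receptor genes lie near 0, and Matn4 is the single gene called lower.

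Markers of several stromal cell types were checked beside the collagens. Of 12 fibroblast markers 7 were higher by edgeR and 8 by DESeq2, against 2.89% and 6.71% of all genes tested. Their median log2 fold change was 2.86. In 10 of them every footpad tumor lay above every flank tumor, which held for 17.5% of all genes tested. Their summed level was 378 to 456 CPM in the footpad and 187 to 273 CPM in the flank. Pdgfrb, a receptor of fibroblasts and pericytes, rose from 19.3 ± 3.73 to 58.0 ± 3.49 CPM (log2 fold change 1.59, edgeR adjusted p 0.00984), while the abundant Gsn and Fbln1 had log2 fold changes of 0.42 and 0.30 (adjusted p 0.383 and 0.335). Of 10 endothelial markers 3 were higher by edgeR and 5 by DESeq2, and in 7 every footpad tumor lay above every flank tumor. Their summed level was 336 to 391 CPM in the footpad and 199 to 239 CPM in the flank. Of 9 tested mural and smooth muscle markers 1 was higher by edgeR and 1 by DESeq2, and in 4 every footpad tumor lay above every flank tumor. That list summed to 396 to 479 CPM in the footpad and 233 to 298 CPM in the flank. No marker of these 3 lists had 0 reads in all tumors, and the part of cell composition in the collagen differences was not tested.

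Of the macrophage markers 1 of 8 was higher by edgeR and of the Schwann cell markers 1 of 7, against 2.89% of all genes tested. Of the 8 neutrophil and 4 tested adipocyte markers none was. In 3 macrophage and 2 Schwann cell markers every footpad tumor lay above every flank tumor, which held for 17.5% of all genes tested. The reverse held for 1 Schwann cell marker, against 14.9%. By an unadjusted edgeR p under 0.05 with the fold, 7 neutrophil markers were higher, against the 9.16% of all genes given above, and DESeq2 called 2. Their sum was high in footpad replicates 1 and 3, while footpad replicate 2, at 7.61 CPM, lay inside the flank range of 4.91 to 33.4 CPM. No adipocyte marker passed either rule. Of 7 tested keratinocyte markers none was called by edgeR. By the unadjusted rule 6 of them were higher, against 9.16% of all genes tested, and DESeq2 called 1, against 6.71%. In 3 keratinocyte markers every footpad tumor lay above every flank tumor. That list summed to 6.80 to 1110 CPM in the footpad and 0.155 to 9.84 CPM in the flank. Footpad replicate 2, whose keratinocyte and muscle markers were high, was between the other footpad tumors in Col6a1, Col6a2, Col6a3 and Col8a1, and without it all 4 had an edgeR adjusted p between 0.0194 and 0.0341.

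The genes most like a collagen in pattern were taken as those with the smallest root mean square (RMS) difference of log2 CPM over the 6 tumors, after each gene was centred on its own mean. For Col6a1 these were Col5a1, a fibrillar collagen chain gene, at an RMS difference of 0.143, Pheta2 at 0.146 and Ndn at 0.197. For Col8a1 they were Ptgis, the prostacyclin synthase gene, at 0.0967, Ndn at 0.173 and Ldlrad4 at 0.176. Between members the difference was 0.201 for Col6a1 and Col6a2, 0.216 for Col6a1 and Col8a1 and 0.320 for Col6a1 and Col6a3. Col5a1 and Pheta2 were picked as the closest of all tested genes outside the members, so setting them against these fixed pairs decides nothing. Ptgis was at 2.51, 2.64 and 2.88 CPM in the footpad and 0.414, 0.804 and 0.272 CPM in the flank. Its order of flank tumors, with replicate 2 highest as in the collagens, follows from the choice by pattern.

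Col10a1 followed other genes, and its RMS difference from Col6a1 was 1.86. Nearest to it were the predicted genes Gm42127 at 0.0975 and Gm41949 at 0.165, and Malat1, a nuclear long non-coding RNA, at 0.179. Malat1 was at 1786, 452 and 924 CPM in the footpad and 1574, 1461 and 919 CPM in the flank. Its highest tumor was footpad replicate 1 and its lowest footpad replicate 2, as for Col10a1, which follows from its choice by pattern. The log2 fold change of Malat1 was -0.32 (edgeR adjusted p 0.697). The part of nuclear RNA in the Col10a1 counts was not tested.

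**Figure D4:**
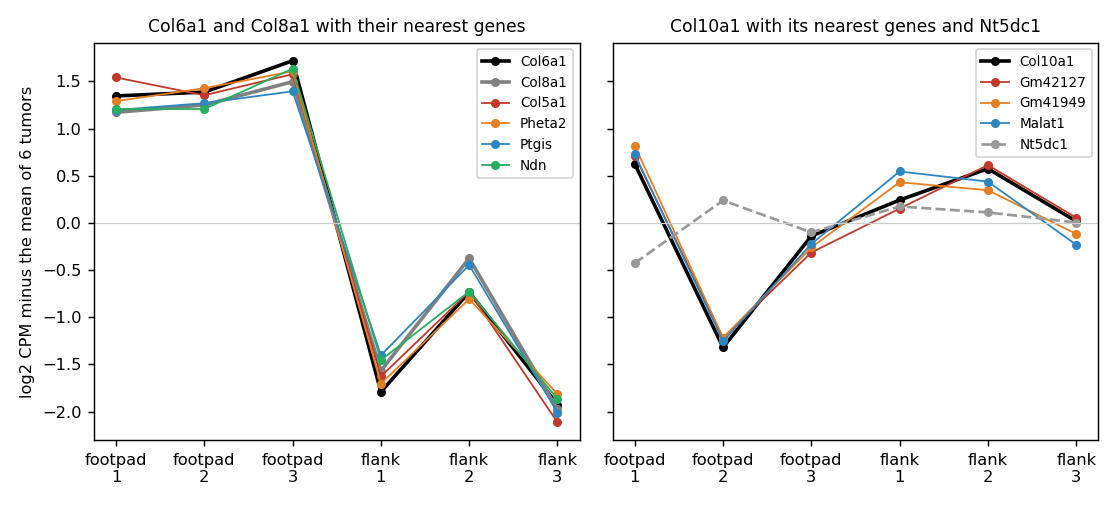
Log2 CPM in each tumor minus the mean of the 6 tumors. Left: Col6a1 and Col8a1 with 4 of their nearest genes, which are high in all footpad tumors and low in the flank with replicate 2 highest. Right: Col10a1 with its 3 nearest genes, which share a low point in footpad replicate 2, and Nt5dc1 (dashed), the gene that contains it, which does not. The nearest genes in both panels were picked for their likeness over these tumors, so the shared shapes follow from the choice.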

How the data were processed

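RNA of 3 footpad and 3 flank skin tumors was analysed, 1 library each, grouped by the sample labels. Per the labels, the authors checked reads with FastQC 0.11.7, trimmed them with Trimmomatic and aligned them to mm10 with HISAT2 2.1.0. The authors deposited 2 kinds of value: unnormalized counts of reads on each gene, and FPKM, in which they divided by transcript length and library depth. Which counter was used, its use of strand and its treatment of reads matching several genes are not given in the sources used here. The labels name a stranded library guide.

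Counts were scaled by TMM, filtered on low counts with filterByExpr (17210 of 45777 genes kept) and tested with edgeR 4.0.16 (quasi-likelihood, site as the only term). DESeq2 1.42.0 and limma 3.58.1 on log2(FPKM + 1) served as alternatives. Ratios of FPKM, with 0.01 added, were compared by exact permutation. The fits were tested on simulated data. Replicates differed beyond sampling noise. The members and lists were chosen with earlier results of these data known. The rule for named genes took all members, called partner genes, up to 3 markers of a list highest in summed count, and the 3 nearest genes of Col6a1, Col8a1 and Col10a1. Uncalled receptor, matrilin and modification genes were named outside it, after their values were seen. So were the cartilage and bone markers other than Spp1, Col2a1 and Col9a1. Sequences and positions came from RefSeq on GRCm38.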

Additional observations from a re-analysis of the deposited data

How the results depend on the processing

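The count of 4 collagen genes higher in the footpad held under DESeq2, upper-quartile scaling, no filter, a filter of 10 counts in every tumor and limma on FPKM. With 1 tumor left out it lay between 0 and 4, and it was 0 with the replicate block. The labels do not say whether same-numbered tumors shared an animal. Deviations of same-numbered tumors correlated at 0.05, -0.10 and -0.11 across genes, and those of differently numbered tumors at -0.20 to 0.26. With 3 tumors a site these values cannot decide whether the tumors were paired. With the block 0 genes of all tested were called, and the collagen VI genes had an edgeR adjusted p of 0.0552. The 6 higher partner genes became 0 with the replicate block and lay between 0 and 6 with 1 tumor left out. Leaving out footpad replicate 1 gave 1, footpad replicate 3 gave 0, flank replicate 1 gave 2 and flank replicate 3 gave 0. The 1 lower partner gene, Matn4, became 0 with the filter of 10 counts, with limma on log2(FPKM + 1), with the block and with any tumor left out. The log2 fold change of Col6a6 ran from -0.81 to 0.27 with 1 tumor left out, turning sign without footpad replicate 3, and that of Col8a2 from -0.43 to 1.00, turning sign without footpad replicate 3 (-0.43) and without flank replicate 3 (-0.38). The cause was not tested. No ratio changed direction in 9 alternatives. Over all genes, edgeR called 497 higher and 150 lower, DESeq2 1154 and 352, and limma on log2(FPKM + 1) 271 and 95. With 3 tumors a site, low genes such as Col8a2 are known only to within the wide intervals given.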

Other observations

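The genes next to the collagens were looked at after the collagen values were seen. Within 100 kilobases of the 7 tested collagen genes lay 16 other tested genes. None was called by edgeR, 3 were higher by an unadjusted p under 0.05 with a fold of 2, against 9.16% of all genes tested, and DESeq2 called the same number higher, against 6.71%. The 3 were Gm41918, Pcbp3 and Filip1l. Gm41918, a predicted gene 2845 bases beyond the 3′ end of Col6a3, was at 0.224, 0.292 and 0.347 CPM in the footpad and 0, 0.0342 and 0 CPM in the flank (log2 fold change 4.43, edgeR adjusted p 0.0518, DESeq2 adjusted p 0.0309). Its single flank tumor with reads, replicate 2, was the one with the most Col6a3. Pcbp3, on the same strand as Col6a1 and 35809 bases upstream of it, had a log2 fold change of 2.11 (edgeR adjusted p 0.0854). Filip1l, 51451 bases from Col8a1, had 1.06 (adjusted p 0.0658). Mcm3ap and Lss, beside Col6a2, had 0.28 and -0.34 (adjusted p 0.366 and 0.542). Col6a1, which also lies in the window of Col6a2, is a member and was left out of this count.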
